A study of Mus musculus with 8 samples.

Results

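The genes described here are 8 enzymes that split dipeptides or amide bonds and for which the proximal tubule of the kidney is known: the carnosinases Cndp1 and Cndp2, the membrane dipeptidase Dpep1, the aminoacylases Acy1 and Acy3, the gamma-glutamyl transferase Ggt1, the prolidase Pepd and the dipeptidyl peptidase Dpp4. They were taken by symbol from a table of read counts that held 22609 genes, and all 8 were found and passed the filter on low counts. They were chosen with the difference between aged and young mice already known. That difference is therefore given below as a description, with its size and error, and no p is given for it. The intervals printed with it are not adjusted for this choice or for the number of genes tested. Nothing is read from whether an interval lies wholly below or above no difference. Nor is anything read from whether any of the 8 meets the call rule used for all genes. RNA-Seq was performed on the kidney cortex of 4 aged and 4 young male C57BL6 mice, 1 library per mouse, to find the mRNAs that differ with age. The labels give an age of 30 months to the aged mice and of about 5 months to the young ones, and no treatment for either. The study's methods describe mice of these ages as bred in house, and give the sequenced aged mice a somewhat higher mean age than the labels do.

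Peptides that are filtered at the glomerulus, or released from proteins in the tubule, are cut down at the brush border of the proximal tubule by enzymes that face the lumen, among them Ggt1, Dpep1 and Dpp4. The dipeptides that are taken up are split in the cytosol by enzymes such as Cndp2 and Pepd, and acetylated amino acids are freed by the aminoacylases. The same enzymes work in series on glutathione and its conjugates: Ggt1 removes the glutamyl residue, dipeptidases split the cysteinyl-glycine that is left, and Acy3 takes the acetyl group off mercapturic acids.

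The libraries held between 14820804 and 19821429 read pairs on genes. Levels are given as CPM, the count of a gene divided by the library size and put on a common scale. Library size was the read pairs on genes that passed the filter on low counts, scaled by the TMM method of edgeR. Each mean is over 4 mice with its SD. The 8 genes had between 714 and 42580 counts in a library, so counting error is small beside the spread between mice. Aged mouse 1 stood apart from the other 7 mice. On the first principal component of all genes tested, which held 48.1% of the variance, it lay at -71.5 and the others between -16.3 and 26.2. Its summed level of 8 marker genes of the first segments of the proximal tubule (S1/S2) was 11562 CPM, against 21666 to 24481 CPM in the other aged mice and 21238 to 25779 CPM in the young mice, and none of these markers was at 0 in all mice. The markers were not alike in this mouse. Lrp2, at 3862 CPM against 9399 to 11166 CPM in young mice, Slc34a1, Slc22a6, Slc5a2 and Cubn were under every young mouse. Slc4a4 (2308 CPM) and Slc5a12 (439 CPM) lay inside the young range and Slc6a19 (356 CPM) above it. Because aged mouse 1 stood apart, each difference of the 8 enzymes is also given without it. In cortex sampled in bulk, fewer cells of a type and less RNA per cell cannot be told apart.

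Cndp2 encodes the cytosolic dipeptidase that splits many dipeptides and also joins lactate to amino acids, and its mRNA was 3.86-fold less abundant in aged than in young mice on average. Cndp2 was at 225, 493, 327 and 739 CPM in aged mice 1 to 4 and at 1565, 1923, 1776 and 1624 CPM in young mice 1 to 4. The groups did not overlap, and the highest aged mouse, mouse 4, was far under the lowest young mouse. The mean was 446 ± 224 CPM in aged and 1722 ± 161 CPM in young mice, 25.9% of the young level. The log2 fold change, aged minus young, from edgeR was -1.95 (SE 0.33, 95% interval -2.69 to -1.21), and it was -1.73 without aged mouse 1. Cndp1, the carnosinase that in humans circulates in serum and in rodents is made in the kidney, did not share this difference. Its level was 52.9, 102, 100.3 and 183 CPM in aged mice 1 to 4 and 87.2, 110, 86.6 and 86.7 CPM in young mice 1 to 4. The aged mice lay on both sides of the young ones, with mouse 1 lowest and mouse 4 highest of all 8. The log2 fold change of Cndp1 was 0.24 (SE 0.31, 95% interval -0.45 to 0.94), with 0.47 without aged mouse 1 and -0.12 without aged mouse 4.

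**Figure D1:**
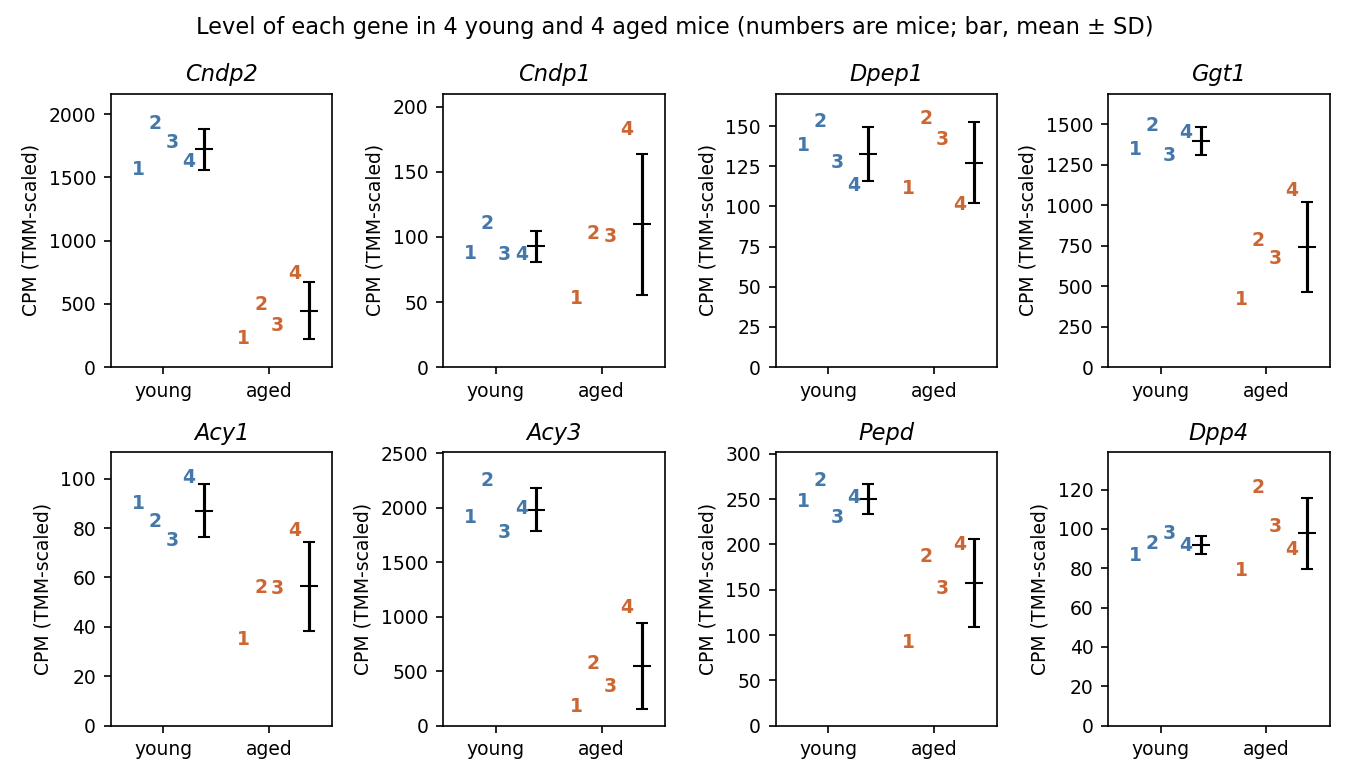
Level of each of the 8 genes (vertical axis, TMM-scaled CPM, from 0) in young and aged mice. Each number is a mouse, and the bar is the mean ± SD of 4 mice. In Cndp2, Acy3, Ggt1 and Pepd every aged mouse lies under every young mouse, and in the other 4 genes the groups overlap.

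The carnosinase genes lie next to each other on the same strand of chromosome 18 in the mm9 build, Cndp1 at chr18:84779901-84819476 and Cndp2 at chr18:84836862-84855025, both on the minus strand and 17386 nt apart. Their coding sequences are identical at 60.04% of 1419 aligned positions, and the longest run of bases shared by their transcripts is 20 nt. A read of 100 bp is longer than that run, so reads of the pair can be told apart. Per kilobase of exons, Cndp2 mRNA outnumbered Cndp1 mRNA 47.0, 45.7, 53.8 and 49.1 times in young mice 1 to 4. In aged mice 1 to 4 the ratio was 11.2, 12.6, 8.54 and 10.6. The ratio varied little within a group (48.9 ± 3.54 in young and 10.7 ± 1.68 in aged mice), although the level of each gene varied more than 3-fold among the aged mice. The size of the ratio depends on the length used: with the longest transcript of each gene it was 25.2 ± 1.82 in young and 5.52 ± 0.867 in aged mice. The next gene before Cndp1, Zfp407, 20784 nt away on the same strand, had a log2 fold change of 0.04 (SE 0.11, edgeR adjusted p = 0.839), and Fam69c, 34386 nt after Cndp2, had no counts in any mouse.

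**Figure D2:**
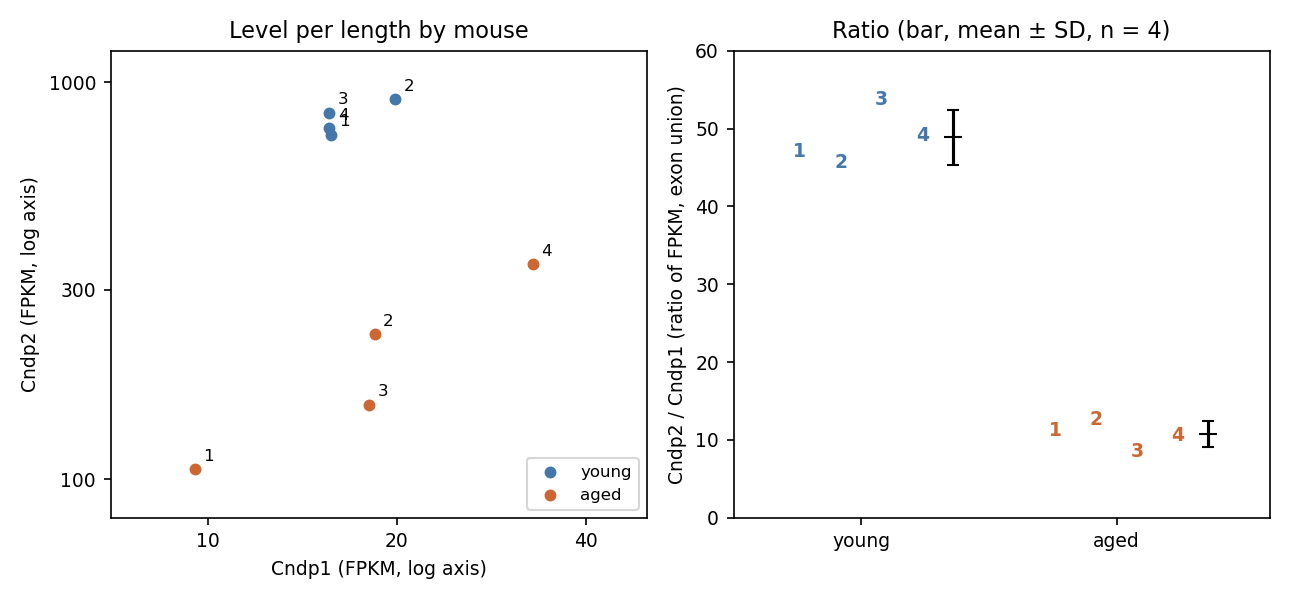
Left, Cndp2 against Cndp1 in each mouse, both in FPKM (CPM per kilobase of exons, log axes). Right, the ratio of Cndp2 to Cndp1 per length (from 0) in each mouse, numbered, with the mean ± SD of 4 mice. The aged mice lie on a lower line than the young mice, at ratios of 8.54 to 12.6 against 45.7 to 53.8 (4.40 to 6.49 against 23.5 to 27.7 with the length of the longest transcript).

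The aminoacylases followed the same direction at different sizes. Acy3, which removes the acetyl group from mercapturic acids and from acetylated aromatic amino acids, was at 173, 574, 361 and 1083 CPM in aged mice 1 to 4. In young mice 1 to 4 it was at 1911, 2252, 1777 and 1993 CPM. No aged mouse reached the lowest young mouse, but the aged mice were 6.26-fold apart among themselves, the widest spread of the 8 genes. The means were 548 ± 393 and 1983 ± 200 CPM, and the log2 fold change was -1.86 (SE 0.47, 95% interval -2.91 to -0.80), or -1.56 without aged mouse 1. Acy3 lies at chr19:3986661-3990007 (mm9, plus strand, 6 exons), and 15.02% of its transcript has copies elsewhere in the genome at 98% identity or more over at least 100 nt. Pairs that aligned to several places are in no gene's count, so the level of Acy3 may be understated, and by how much was not measured. The other 7 genes have no such copies.

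Acy1, the cytosolic aminoacylase that frees most acetylated amino acids, differed less. It was at 35.1, 56.1, 55.7 and 79.0 CPM in aged mice 1 to 4 and at 89.9, 82.8, 74.9 and 100.3 CPM in young mice 1 to 4. Aged mouse 4 was above young mouse 3, so the groups overlapped. The means were 56.5 ± 18.0 and 87.0 ± 10.8 CPM, with a log2 fold change of -0.62 (SE 0.21, 95% interval -1.11 to -0.14), or -0.45 without aged mouse 1. Acy1 lies at chr9:106335327-106340567 (mm9, minus strand, 15 exons), 1815 nt from Abhd14a on the same strand, whose log2 fold change was -0.28 (SE 0.21, edgeR adjusted p = 0.414). Per kilobase of exons, Acy3 exceeded Acy1 by 18.9 to 25.9 times in young and by 4.69 to 13.0 times in aged mice.

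Of the brush border enzymes, Ggt1 was lower in every aged mouse than in any young mouse, and the groups overlapped in Dpep1 and Dpp4. Ggt1, which starts the breakdown of glutathione in the lumen, was at 420, 782, 671 and 1091 CPM in aged mice 1 to 4 and at 1341, 1491, 1305 and 1448 CPM in young mice 1 to 4. The groups did not overlap, and aged mouse 4 was again the nearest to the young mice. The means were 741 ± 278 and 1396 ± 87.6 CPM, and the log2 fold change was -0.91 (SE 0.25, 95% interval -1.47 to -0.35), or -0.72 without aged mouse 1. Ggt1 lies at chr10:75024349-75048945 (mm9, plus strand). The table of annotated transcripts lists 20 for it, which the counts do not tell apart.

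Dpep1 is the dipeptidase anchored to the brush border that splits cysteinyl-glycine and leukotriene D4. It was at 111, 155, 141 and 101 CPM in aged mice 1 to 4 and at 138, 153, 127 and 113 CPM in young mice 1 to 4. The aged mice spanned the young range, with mouse 2 above and mice 1 and 4 below it. The log2 fold change was -0.06 (SE 0.15, 95% interval -0.40 to 0.28), with -0.0023 without aged mouse 1 and 0.05 with scaling by library size alone. The interval therefore holds differences of up to 0.40 on the log2 scale in the direction of a lower level. Dpp4, which removes dipeptides from the start of peptides with a proline in second place, was at 79.1, 121, 101 and 89.7 CPM in aged mice and at 86.3, 92.8, 97.45 and 91.6 CPM in young mice. Its groups overlapped as well, with a log2 fold change of 0.09 (SE 0.13, 95% interval -0.20 to 0.37) that was 0.18 without aged mouse 1 and -0.03 without aged mouse 2. Dpep1 lies at chr8:125710135-125725710 (mm9, plus strand) and Dpp4 at chr2:62168130-62250288 (mm9, minus strand).

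The proportion of Ggt1 to Dpep1, which act one after the other on glutathione, was lower in 3 of the 4 aged mice than in any young mouse. Per kilobase of exons the ratio of Ggt1 to Dpep1 was 6.40, 6.42, 6.75 and 8.40 in young mice 1 to 4 and 2.47, 3.32, 3.12 and 7.08 in aged mice 1 to 4. Aged mouse 4 lay inside the young range and the other 3 aged mice under it. With the longest transcript as length the ratio was higher, at 10.1 to 13.2 in young and 3.90 to 11.1 in aged mice.

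Pepd, the prolidase that frees proline and hydroxyproline from dipeptides, many of them from collagen, was at 91.6, 187, 151 and 200 CPM in aged mice 1 to 4 and at 247, 271, 230.0 and 252 CPM in young mice 1 to 4. No aged mouse reached a young one. The means were 157 ± 48.4 and 250.05 ± 16.7 CPM, and the log2 fold change was -0.67 (SE 0.21, 95% interval -1.15 to -0.19), or -0.48 without aged mouse 1. Pepd lies at chr7:35697398-35829729 (mm9, plus strand), and a small nucleolar RNA gene, SNORA17, lies within its span on the other strand, where counting by strand keeps reads of the pair apart.

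A gene was called when it differed by more than 1.5-fold and had an adjusted p under 0.05 in the quasi-likelihood test of edgeR. Over all 13944 genes tested, 0.889% were called lower and 1.17% higher in aged mice, 2.06% in either direction. Of the 8 enzymes, Cndp2 met this rule, in the lower direction. The groups did not overlap, with aged mice lower, for 4 of the 8 (Cndp2, Acy3, Ggt1 and Pepd), against 10% of all genes tested, and they did so with aged mice higher for 0 of the 8, against 8.85%. Since the enzymes were chosen by this difference, nothing is read from these shares. Cndp2 no longer met the rule when aged mouse 2, aged mouse 3 or any 1 young mouse was left out, when 8 to 119 of all genes did in place of 287, while its log2 fold change stayed between -2.31 and -1.73 over all 8 such fits.

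**Figure D3:**
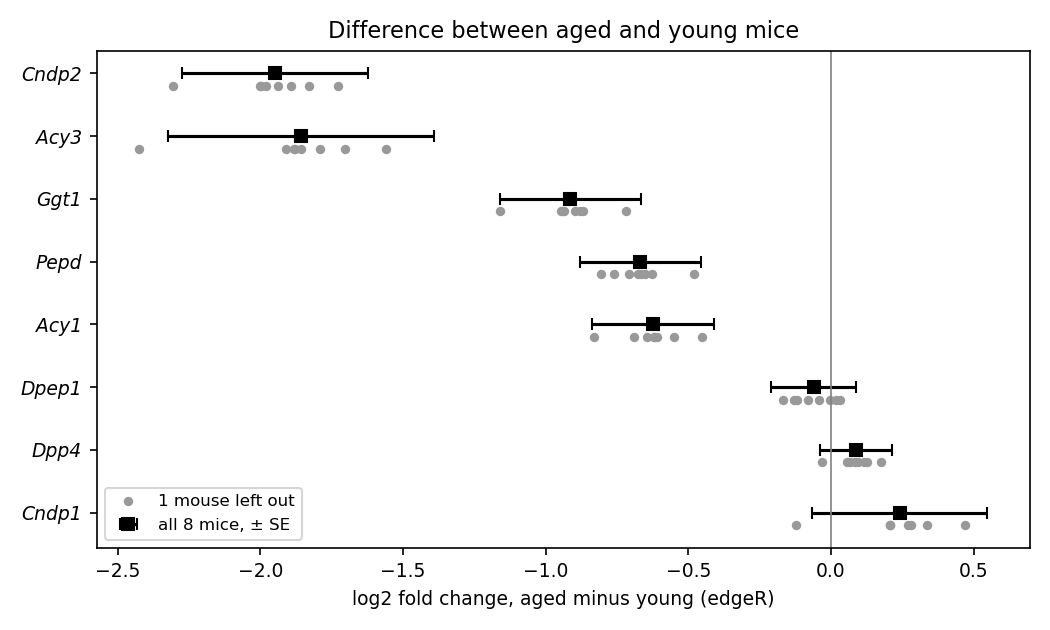
Log2 fold change, aged minus young, of each of the 8 genes from edgeR (horizontal axis). Black squares with bars are the estimates from all 8 mice ± SE, and grey points below them are the estimates with 1 mouse left out. Cndp2 and Acy3 lie at -1.95 and -1.86, Ggt1, Pepd and Acy1 between -0.91 and -0.62, and Dpep1, Dpp4 and Cndp1 have points on both sides of 0, as Dpep1 also has with scaling by library size alone.

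Within the aged group, 6 of the 8 enzymes ordered the mice alike. In Cndp2, Acy3, Ggt1, Pepd, Acy1 and Cndp1 aged mouse 1 was lowest, then mouse 3, then mouse 2, and mouse 4 was highest. Over all genes tested 7.68% had this order, with aged mouse 1, the mouse that stood apart, at its low end. All 6 genes were read from the same libraries, so the shared order is a description. Dpep1 and Dpp4 had other orders, with mouse 2 highest in both. The distance from the young mean, in log2 CPM, was -3.51 in Acy3 and -2.93 in Cndp2 for mouse 1 and -0.87 and -1.22 for mouse 4. The young mice differed less in all 8 genes, as they did in 83.4% of all genes tested by the SD of log2 CPM. The highest young mouse was 1.13 to 1.35 times the lowest in each of the 8 genes, and the highest aged mouse was 1.53 times the lowest in Dpep1 and in Dpp4 and between 2.18 and 6.26 times in the other 6. The coefficient of variation among aged mice was 71.7% in Acy3, 50.3% in Cndp2 and 49.1% in Cndp1, against 10.1%, 9.35% and 12.7% among young mice.

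Marker genes of the proximal tubule segments moved with this order in part. The S1/S2 markers were, against the young mean, at -1.02 in log2 units of their summed level in aged mouse 1 and at -0.01, -0.11 and 0.07 in aged mice 2 to 4, inside the young range. The 8 markers differed among themselves: Slc22a6, an organic anion transporter, was lower in every aged than in any young mouse (log2 fold change -0.90, edgeR adjusted p = 0.107), Slc6a19, an amino acid transporter, was higher (0.66, edgeR adjusted p = 0.122), and the other 6 overlapped. In aged mice 2 to 4 Cndp2 was at -1.80, -2.39 and -1.22 and Acy3 at -1.78, -2.45 and -0.87. The 7 markers of the last segment (S3) summed to 5384, 5456, 4798 and 8876 CPM in aged mice 1 to 4 and to 8880 to 11391 CPM in young mice. By this sum all aged mice were under the young mice, mouse 4 only just, at 8876 CPM against 8880 CPM in young mouse 3. Atp11a (1733 against 2152 CPM) and Napsa (739 against 918 CPM) each differed by more than this margin between these 2 mice. The sums would therefore overlap without either gene. Slc27a2, Slc7a13 and Slc22a30 were higher in aged mouse 4 than in young mouse 3. The markers differed among themselves here too. Atp11a, at a mean of 757 CPM in aged and 2839 CPM in young mice, and Napsa were lower in every aged than in any young mouse. The others overlapped, and Slc7a12 had a positive log2 fold change (0.52). None of the 7 S3 markers was called, their median log2 fold change was -0.86, and none was at 0 in all mice. The part of the S3 segment in the levels of the 8 enzymes was not tested.

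**Figure D4:**
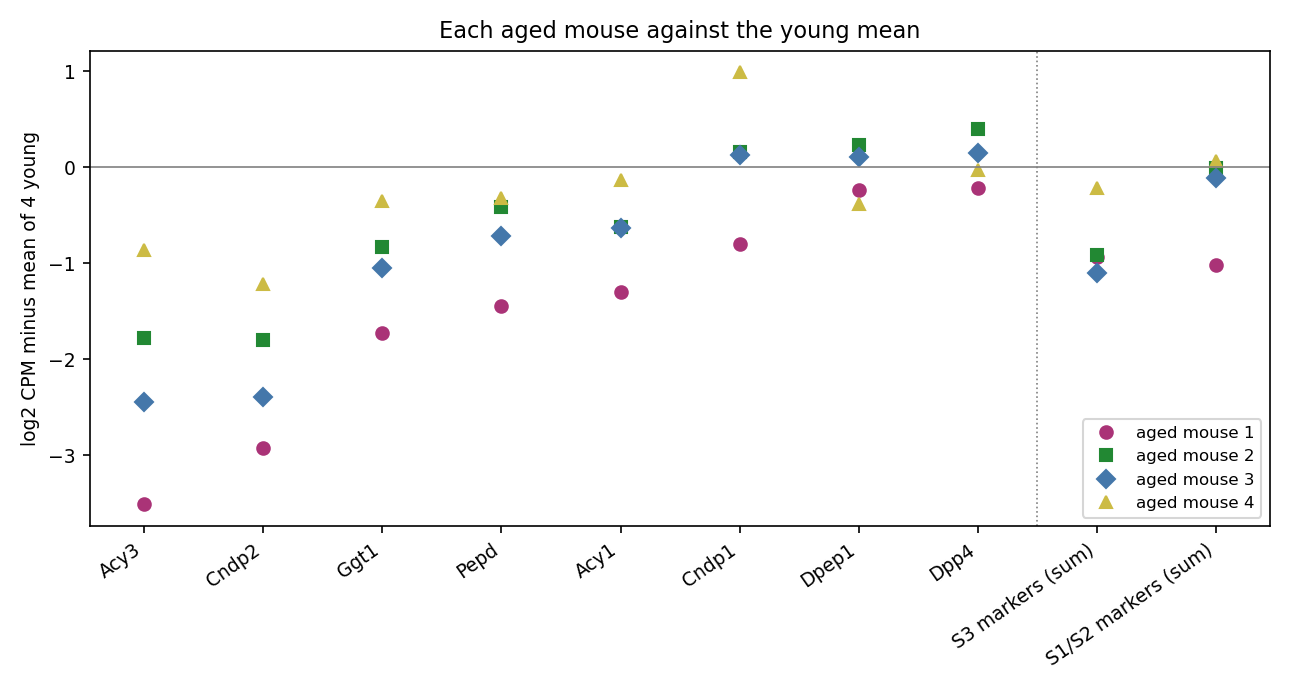
Log2 CPM of each aged mouse minus the mean of the 4 young mice (vertical axis) for the 8 enzymes and, right of the dotted line, for the summed levels of the S3 and S1/S2 marker genes. The line at 0 is the young mean. Aged mouse 1 is lowest and aged mouse 4 highest in Acy3, Cndp2, Ggt1, Pepd, Acy1 and Cndp1, and in the S1/S2 markers only mouse 1 lies far below 0.

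The bases just before the start of transcription are shown for Acy3, Pepd and Acy1, which were lower in aged mice and share the order of the aged mice, and for Dpep1, which did neither, so that a reader can set them side by side. They are the 250 bases before the start in the RefSeq annotation of GRCm38.p6, a different build from the counts, 5′ to 3′ on the strand of the gene. Windows were held for 6 of the 8 genes (not Cndp1 and Cndp2), 9 in all since Ggt1 has 4. Capitals mark a match, on either strand, to one of 7 motifs searched. These were the half-site of the tubule factor HNF1 (GTTAAT) and the site of HNF4 (CAAAGTCCA). The E-box bound by clock factors (CACGTG) and the D-box bound by Dbp (TTATGTAA) were searched as well, and so was the core of the antioxidant response element (TGACNNNGC). The last were the GC box of general promoters (GGGCGG) and the TATA box (TATAAA). None of the matches overlapped.
Acy3, chr19:3986320-3986569, plus strand: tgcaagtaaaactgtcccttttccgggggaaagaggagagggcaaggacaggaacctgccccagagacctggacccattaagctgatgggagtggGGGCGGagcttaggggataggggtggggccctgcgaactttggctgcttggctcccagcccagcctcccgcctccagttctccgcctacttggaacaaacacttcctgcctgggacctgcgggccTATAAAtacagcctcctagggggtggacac
Pepd, chr7:34912157-34912406, plus strand: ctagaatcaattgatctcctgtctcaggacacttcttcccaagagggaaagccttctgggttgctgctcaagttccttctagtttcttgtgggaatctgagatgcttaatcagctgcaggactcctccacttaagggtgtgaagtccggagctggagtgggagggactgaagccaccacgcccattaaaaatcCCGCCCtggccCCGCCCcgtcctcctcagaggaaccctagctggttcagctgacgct
Acy1, chr9:106438237-106438486, minus strand: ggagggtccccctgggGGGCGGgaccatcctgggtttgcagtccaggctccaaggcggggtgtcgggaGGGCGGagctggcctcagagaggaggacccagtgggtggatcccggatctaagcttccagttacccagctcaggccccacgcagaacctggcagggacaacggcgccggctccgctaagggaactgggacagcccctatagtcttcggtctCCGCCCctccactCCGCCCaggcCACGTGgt
Dpep1, chr8:123185985-123186234, plus strand: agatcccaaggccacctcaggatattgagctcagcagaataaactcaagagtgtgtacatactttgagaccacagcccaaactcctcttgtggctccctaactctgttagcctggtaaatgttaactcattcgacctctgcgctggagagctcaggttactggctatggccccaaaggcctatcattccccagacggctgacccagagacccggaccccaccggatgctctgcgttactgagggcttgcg

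The Acy3 window holds a TATA box 30 bases before the start and a GC box 155 bases before it. Pepd has GC boxes at 57 and 46 bases, and Acy1 has GC boxes at 234, 182, 31 and 18 bases and an E-box 8 bases before the start. Dpep1 has none of the 7 motifs in this window. Of the windows not shown, Dpp4 has a TATA box at 227 bases and Ggt1 has, over its 4 windows, antioxidant response element cores at 36 and 83 bases, GC boxes at 74 and 136 bases and a TATA box at 134 bases. These letters are common. Of 32851 windows of the same length, 32.7% hold GGGCGG, 12.4% TATAAA, 10.2% TGACNNNGC, 6.43% GTTAAT, 6.02% CACGTG, 0.819% TTATGTAA and 0.384% CAAAGTCCA. The matches describe the letters only, and binding at them was not measured.

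The level of the 8 mRNAs relative to one another was compared as FPKM, the CPM per kilobase of exons. In young mice Acy3 was highest, at 1318 ± 133 FPKM, followed by Cndp2 at 813 ± 76.0 and Ggt1 at 409 ± 25.7 FPKM. Pepd followed at 81.2 ± 5.42, Acy1 at 60.8 ± 7.53, Dpep1 at 59.2 ± 7.46, Cndp1 at 16.7 ± 2.12 and Dpp4 at 14.6 ± 0.725 FPKM. Only the neighbours Acy1 and Dpep1 overlapped over the 4 young mice. In aged mice the order was Acy3 at 364 ± 261, Ggt1 at 217 ± 81.6, Cndp2 at 210 ± 106, Dpep1 at 56.8 ± 11.2, Pepd at 51.1 ± 15.7, Acy1 at 39.5 ± 12.5, Cndp1 at 19.7 ± 9.70 and Dpp4 at 15.5 ± 2.84 FPKM. Each of these neighbours overlapped the next except Cndp2 and Dpep1. With the length of the longest transcript in place of all exons the levels of Ggt1, Pepd, Cndp1 and Dpp4 were higher, with 644, 133, 32.9 and 17.5 FPKM in young mice. The young order was then the same, but in aged mice Pepd, at 83.6 FPKM, stood above Dpep1, and Cndp2 and Pepd were the neighbours that did not overlap.

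The pattern of Cndp2 over the 8 mice was set against that of every other gene tested, by Pearson's r of log2 CPM. The mice share their libraries and fall into age groups, so r is a description here, over 8 mice. The enzymes were chosen with the age difference known, and r over the 8 mice holds that difference. A strongly positive r with Cndp2 thus goes with a lower, and a strongly negative r with a higher, level in aged mice. Nothing is read from the ranks or calls. Acy3 had an r of 0.985 and ranked 11 among all genes, Ggt1 had 0.970 (rank 59), Pepd 0.930 (rank 324) and Acy1 0.897 (rank 643). Dpep1 and Dpp4 had 0.13 and -0.04. Cndp1 had 0.264 over the 8 mice (rank 5221), but 0.942 (rank 117) once the mean of each age group was subtracted, when Acy3 had 0.982 (rank 6). Spearman's rho after the subtraction was 0.738 for Cndp1 and 0.929 for Acy3. The SD of log2 CPM was 0.73 in aged and 0.17 in young mice for Cndp1, and 0.74 and 0.13 for Cndp2. The aged mice therefore carry most of r after the subtraction. The genes most like Cndp2 over the 8 mice were Afg3l1 (0.993), a subunit of a mitochondrial protease, Sema4g (0.993), Sumf2 (0.990), Mfn2 (0.988), which fuses mitochondria, and Wdr78 (0.987). Of these Sema4g was called lower. The genes most unlike it were Abcc4 (-0.988), an efflux pump, H2-Q2 (-0.986) and Aldh1a1 (-0.984), which makes retinoic acid, and all 3 were called higher in aged mice. Aldh1a1 was at 103 CPM in aged and 9.13 CPM in young mice. After subtraction of the group means the most like were Bend5 (0.996), Pak1 (0.991), Rwdd1 (0.991), Zfp101 (0.987) and Ptpra (0.983), and the most unlike Rps28, Acot7 and Layn (-0.987, -0.987 and -0.986), and none of these 8 was called. The genes listed depend on the measure. By Spearman's rho over the 8 mice, Add1, Ascc1, B3galt5, Clybl and Ears2 were listed first, tied at 1. Zkscan6, Tigd2 and Ston1 were listed last, tied at -1, and none of these was called. After the subtraction Bend5 and Acot7 were listed by both measures.

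The remaining neighbours of the 8 genes were not called. Of those tested, Rpl29 and Abhd14a beside Acy1, Ggt5 and AI646023 beside Ggt1, Cebpg and Chst8 beside Pepd, and Chmp1a and Sult5a1 beside Dpep1 had log2 fold changes between -0.67 (AI646023) and 0.91 (Sult5a1). Tbx10, 2745 nt after Acy3 on the same strand, was at 0.295 to 5.08 CPM with a log2 fold change of -1.37 (SE 0.61, edgeR adjusted p = 0.197). Aldh3b2 beside Acy3 and Slc4a10 and Gcg beside Dpp4 were under the filter on low counts. In the mm9 annotation Gm20388 shares strand and span with Dpep1, and Gm17269 with Ggt1, and neither is among the counted genes, so reads from them could enter the counts of Dpep1 and Ggt1. Gm13561 overlaps Dpp4 on the other strand.

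Other genes of the same pathways were examined in 6 lists of 87 genes, of which 80 were tested. In all, 2 were called lower and 2 higher, 5% of those tested against 2.06% of all genes. Their median log2 fold change was -0.14, against 0.03 for all genes. For 20 of the 80 (25%) every aged mouse was under every young mouse, against 10% of all genes. The lists were chosen with earlier results known, and nothing particular to them is read from these shares. The number of calls moved with the mice included, in the lists as over all genes. Without aged mouse 1 the lists held 4 genes called lower (444 called in either direction over all genes), without aged mouse 4 they held 13 (733), and without aged mouse 2, aged mouse 3 or any 1 young mouse they held 0 (8 to 119). Genes called higher numbered 2 without aged mouse 1, 2 or 3, 3 without aged mouse 4 and 0 without any 1 young mouse.

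**Figure D5:**
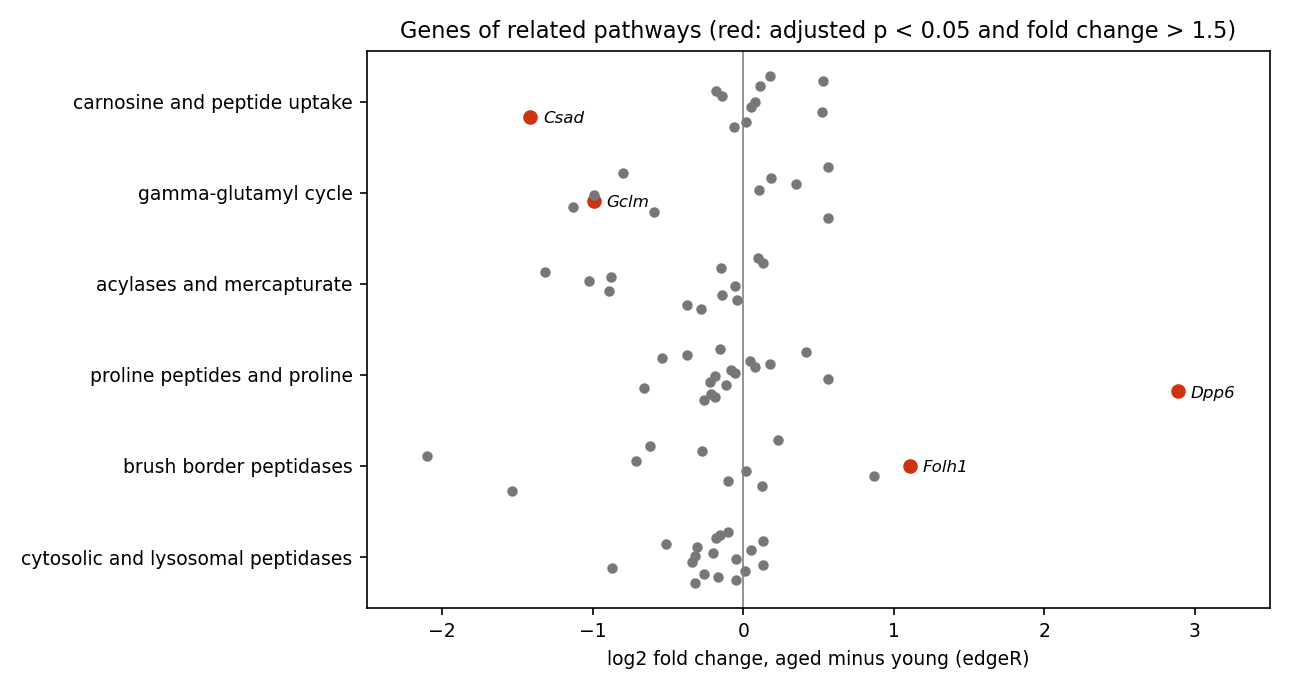
Log2 fold change, aged minus young, from edgeR (horizontal axis) of the 80 tested genes in 6 lists of related pathways; each point is a gene, and red points were called (adjusted p below 0.05 and fold change above 1.5). Csad and Gclm lie left of 0 and Folh1 and Dpp6 right of 0; the place of Dpp6 rests on 2 to 4 counts in each young mouse and depends on the prior count of the fit.

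In the list for carnosine and peptide uptake, 11 of 14 genes were tested, with a median log2 fold change of 0.05. Csad, which makes hypotaurine on the path to taurine, fell. It was at 64.9, 97.96, 59.7 and 149 CPM in aged mice 1 to 4 and at 256, 235, 220.0 and 278 CPM in young mice 1 to 4. The groups did not overlap, and aged mouse 4 was again highest among the aged. The log2 fold change of Csad was -1.41 (SE 0.27, edgeR adjusted p = 0.0390, between 1.82e-05 and 0.121 over the alternatives), and it passed in 2 of 8 fits with 1 mouse left out, those without aged mouse 1 or 4, while the log2 fold change stayed between -1.74 and -1.25. Slc6a6, which takes up taurine and beta-alanine, had 0.53 (SE 0.22, edgeR adjusted p = 0.171), and Abat, which breaks down beta-alanine, -0.06 (SE 0.13, edgeR adjusted p = 0.793). Carns1, the carnosine synthase, was at 1.39 ± 0.309 CPM in aged and 1.37 ± 0.323 CPM in young mice.

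In the gamma-glutamyl cycle, the path that makes and breaks glutathione, all 10 genes were tested and the median was -0.24. Gclm, the modifier subunit of the enzyme that starts glutathione synthesis, fell. It was at 107, 138, 124 and 201 CPM in aged mice 1 to 4 and at 309, 255, 261 and 309 CPM in young mice 1 to 4, and no aged mouse reached a young one. The log2 fold change of Gclm was -0.99 (SE 0.19, edgeR adjusted p = 0.0372, between 3.75e-05 and 0.120 over the alternatives), again with 2 of 8 passing when 1 mouse was left out, at log2 fold changes between -1.21 and -0.88. Gclc, the catalytic subunit, had -1.13 (SE 0.27, edgeR adjusted p = 0.0564), with 288 ± 87.0 CPM in aged and 632 ± 187 CPM in young mice, and overlapping groups, and it was called without aged mouse 4, at -1.33. Oplah, which opens 5-oxoproline, had 0.56 (SE 0.22, edgeR adjusted p = 0.155). It was at 475 CPM in aged mouse 1 and 224 to 278 CPM in the other aged mice, and without mouse 1 the value was 0.27. The relatives of Ggt1, Ggt5, Ggt6 and Ggt7, averaged 8.42, 16.8 and 1.34 CPM over all mice, and none was called.

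Among 12 acylases and enzymes of mercapturate formation none was called, 10 had a negative log2 fold change and the median was -0.21. Abhd14b had -0.38 (SE 0.19, edgeR adjusted p = 0.242) and Cml1, an acetyltransferase relative, -1.02 (SE 0.48, edgeR adjusted p = 0.214). Without aged mouse 1 these were -0.22 and -0.68, and Cml1 was then called. Aspa and Pm20d1, which split acetylaspartate and fatty acyl amino acids, had -0.14 (SE 0.12, edgeR adjusted p = 0.489) and 0.13 (SE 0.11, edgeR adjusted p = 0.451).

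Of 20 genes of proline peptides and proline metabolism, 18 were tested and the median was -0.13. Dpp6, a relative of Dpp4 without peptidase activity, rose from a very low level, with 15, 27, 22 and 19 counts in aged mice 1 to 4 and 2, 2, 4 and 2 counts in young mice 1 to 4 (edgeR adjusted p = 0.0217, between 2.29e-04 and 0.102 over the alternatives). No fold change is given for it, since 3 of the 4 young mice were under the floor of 3 counts, and it was not tested when 10 counts were required in every library. Prodh and Aldh4a1, which break down proline freed by Pepd, had 0.08 (edgeR adjusted p = 0.697) and -0.19 (edgeR adjusted p = 0.472).

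Among 13 other peptidases of the brush border, 11 were tested and the median was -0.10. Folh1, which cuts glutamate off folate and acidic peptides, rose. It was at 407, 425, 381 and 263 CPM in aged mice 1 to 4 and at 153, 170, 193 and 168 CPM in young mice 1 to 4, and every aged mouse was above every young one. The log2 fold change was 1.11 (SE 0.15, edgeR adjusted p = 0.0180, between 9.91e-09 and 0.0895 over the alternatives), and the call was lost when any 1 young mouse was left out, with values of 1.03 to 1.24 over the fits that left out 1 mouse. Aged mouse 4, highest among the aged in Cndp2, was lowest in Folh1. Mep1a, a subunit of the metalloprotease meprin, had -0.71 (SE 0.24, edgeR adjusted p = 0.118) and 1339 ± 476 CPM in aged against 2192 ± 306 CPM in young mice, and was called without aged mouse 4, at -0.96. The lowest values of the list were those of Mep1b, the other meprin subunit, at -2.10 (SE 0.57, edgeR adjusted p = 0.0738), and of Ace, which makes angiotensin II, at -1.54 (SE 0.41, edgeR adjusted p = 0.0738), both with non-overlapping groups and neither called. In the 18 cytosolic and lysosomal peptidases none was called, 14 values were negative and the median was -0.17. Lap3, the leucine aminopeptidase, had -0.87 (SE 0.25, edgeR adjusted p = 0.0821) and non-overlapping groups, and was called without aged mouse 4, at -1.06. Tpp1, a lysosomal peptidase, had -0.15 (edgeR adjusted p = 0.544).

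Markers of other cell types in the cortex gave the following summed levels. Those of the thick ascending limb ran from 3104 to 5281 CPM in aged and 4657 to 7118 CPM in young mice, of the distal convoluted tubule from 1384 to 1755 and 1118 to 1793 CPM, and of the collecting duct from 346 to 486 and 351 to 412 CPM. Podocyte markers ran from 258 to 506 CPM in aged and 354 to 438 CPM in young mice, endothelial ones from 401 to 587 and 468 to 498 CPM, stromal ones from 157 to 253 and 239 to 288 CPM, and macrophage ones from 74.7 to 167 and 95.4 to 144 CPM. The sums of these 7 lists overlapped between the groups. Of the 6 macrophage markers, Csf1r fell by 1.00 (SE 0.22, edgeR adjusted p = 0.0472), while the other 5 had positive values that were not called, and the median of the 6 was 0.36. The 7 lymphocyte marker genes were all among the counted genes, and 5 were tested. The sum of the 7 was 36.3 to 101 CPM in aged and 8.03 to 18.2 CPM in young mice, with no overlap, and most of it was Igj, a gene of plasma cells. Igj rose, with a log2 fold change of 2.65 (SE 0.45, edgeR adjusted p = 0.0311). Without Igj the other 6 summed to 4.27 to 5.46 CPM in aged and 2.01 to 4.68 CPM in young mice, which overlapped. Igj was highest in aged mouse 3, at 96.5 CPM, which was neither lowest nor highest in any of the 8 enzymes, and the part of these cells in the enzymes' levels was not tested.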

How the data were processed

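The 8 enzymes, the gene lists and the tests were chosen with earlier results of these data known. The authors depleted ribosomal RNA, made stranded libraries, sequenced paired ends of 100 bp (CASAVA 1.8.2 is named in the submitters' processing notes), aligned them to UCSC mm9 with TopHat2 and counted pairs by strand with HTSeq on RefSeq genes; versions of the aligner and counter are not given in the sources used here. The deposited values are raw counts per gene, with no normalization. The joint table held the same counts as the tables of single libraries (0 values differed). Its 5 lines that name no gene entered neither library sizes nor tests. Pairs on no gene made up 20.0% to 29.9% of each library, pairs aligned to several places 34.3% to 39.1% and ambiguous pairs at most 0.346%. Aged mice 1 and 4, lowest and highest of the aged in 6 of the 8 enzymes, stood apart in these shares. They had 29.9% and 29.0% on no gene, against at most 25.1% elsewhere. At several places they had 34.3% and 34.6%, against at least 36.5% elsewhere. The part of this in the enzymes' levels was not tested. The share of pairs aligned to several places depends on whether each alignment was counted, which was not checked; such pairs are in no gene's count.

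With the pairs on all genes as library size and before TMM scaling, 3 counts correspond to 0.151 to 0.202 CPM. This floor covers counting error only. No pair of libraries agreed within sampling noise (smallest chi-square per gene 8.79 over 14825 genes). The labels do not say how the mice were related, and the study's methods say only that mice of these ages were bred in house. Each p sets the difference between the age groups against the spread between mice within them.

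Counts were fitted with the quasi-likelihood test of edgeR 4.0.16 in R 4.3.3 (TMM scaling, filterByExpr with a minimum count of 10, all 8 libraries, no covariate), and p-values were adjusted by Benjamini-Hochberg over the 13944 genes tested. Log2 CPM used a prior count of 2. As alternatives, scaling was done with the size factors of DESeq2, with the upper quartile or with library size alone; further ones were the DESeq2 1.42.0 test, limma 3.58.1 voom with quality weights, no filter, at least 10 counts in every library, no fold threshold, the replicate number as a block and leaving out each mouse. The study's methods used DESeq with the same thresholds of fold and adjusted p. They also set a lower limit on FPKM, which was not applied here.

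Named are the 8 enzymes, every called gene and the 2 most abundant genes of each of 6 pathway lists, the 5 genes most like and the 3 most unlike Cndp2, and genes that overlap or adjoin an enzyme. Aspa, Pm20d1, Carns1, Mep1b, Ace, Ggt5 to Ggt7, Igj, Csf1r, Slc22a6 and Slc6a19 were added after their values were seen. So were the other S1/S2 and S3 markers that are named. Positions and lengths came from the GENCODE annotation of mm9, copies from BLAST 2.17.0, the alignment of coding sequences from MAFFT 7.526 and promoter windows from RefSeq. FPKM used the union of annotated exons. Other steps ran in Python 3.11.15.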

Additional observations from a re-analysis of the deposited data

Results flagged for a closer look

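A mouse was listed here where, within its group of 4, its gap to the nearest other mouse took up more of the group's range than Dixon's 95% critical value for 4 samples allows. Of 66 groups examined 6 passed, where about 1 in 20 do so by chance (3.3 of 66). Cndp1 was higher in young mouse 2, at 110 CPM, than in the other young mice, at 86.6 to 87.2 CPM (0.973 of the range). The same mouse had the highest Cndp2 and Acy3 levels of the young mice. Prodh was lower in aged mouse 2, at 239 CPM, than in the other aged mice, at 319 to 331 CPM (0.868). Dpp6 was higher in young mouse 3, at 0.272 CPM or 4 counts, than in the other young mice at 0.106 to 0.123 CPM or 2 counts each (0.895). These values lie around the floor of 3 counts, so nothing is read from this flag. The summed S3 markers were higher in aged mouse 4, at 8876 CPM, than in the other aged mice, at 4798 to 5456 CPM (0.839), and this mouse also had the highest level among the aged in 6 of the 8 enzymes. The summed lymphocyte markers were higher in aged mouse 3, at 101 CPM, than in the other aged mice, at 36.3 to 40.2 CPM (0.940), and this was Igj, at 96.5 CPM against 31.1 to 35.9 CPM, since the other 6 markers together summed to 4.28 CPM in that mouse and 4.27 to 5.46 CPM over the 4 aged mice. The lymphocyte sum was also higher in young mouse 1, at 18.2 CPM, than in the other young mice, at 8.03 to 9.59 CPM (0.848). The causes of these differences were not tested.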

How the results depend on the processing

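The number of genes called (287) was 488 with library size alone, 873 with the DESeq2 test, 483 with limma-voom and 130 with the replicate number as a block, and ran from 8 to 733 when 1 mouse was left out. Of the 8 enzymes, chosen by this difference, so that nothing is read from the counts, 1 met the call rule, 2 with library size alone (Cndp2, Acy3), 5 with DESeq2 (with Acy1, Ggt1 and Pepd), 3 with limma-voom (Cndp2, Acy3, Ggt1) and from 0 to 4 with 1 mouse left out. Genes of the pathway lists called lower numbered 2, against 11 with DESeq2, 8 with limma-voom and 0 to 13 with 1 mouse left out, and those called higher 2, against 1 with at least 10 counts in every library (Dpp6 was then not tested) and 0 to 3 with 1 mouse left out. Apart from Dpp6, the cause was not tested. Library size alone also moved the share of calls that were higher from 56.8% to 75.4% and the median log2 value over all genes from 0.03 to 0.14. Signs turned for values near 0: Dpep1 was at 0.053 with library size alone and between -0.17 and 0.033 with 1 mouse left out, Cndp1 between -0.12 (without aged mouse 4) and 0.47, Dpp4 between -0.031 (without aged mouse 2) and 0.18, Abat at 0.046 with library size alone, 0.027 with limma-voom and between -0.13 and 0.053 (without aged mouse 1), and the correlation of Dpp4 with Cndp2 at 0.119 as Spearman's rho. Of 136 fits of the 8 enzymes under alternatives, 113 kept direction and side of the threshold.

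The labels give same-numbered aged and young mice nothing in common but the number. The correlations of their deviations from the group means ran from -0.03 to 0.206, and those of differently numbered mice from -0.30 to 0.165. The highest, 0.206 and 0.199, were those of the mice numbered 1 and 3. Whether same-numbered mice shared a batch was not tested. With the replicate number as a block Cndp2, Csad, Gclm, Dpp6 and Folh1 were still called and Gclc was called as well (-1.13). With 4 mice a group, each of the 8 fits without 1 mouse moved the number of genes called by more than 1.5 times, and of the 3 other scalings library size alone did so.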
